A study of Rattus norvegicus with 11 samples.

Results

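The genes described are the ligands and receptors of axon guidance, that is, the semaphorins with their plexin and neuropilin receptors, the ephrins with their Eph receptors, the Slits with their Robo receptors, and the netrins with Dcc, Neo1 and the Unc5 receptors. Members were chosen by gene name among the protein-coding genes of the expression tables, which gave 71 of 30443 genes, 35 of them ligands and 36 receptors. Of these, 61 had a length-scaled fragment count (FPKM) over 1 in at least 1 library and were tested, among 14867 genes tested in all. Unc5cl was taken in by its name only.

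RNA was sequenced from the spinal cord of female Sprague-Dawley rats, 12 to 14 weeks old at surgery, that received a contusion at T9 (spinal cord injury, SCI) and were collected 1, 3 or 6 months later (1 M, 3 M or 6 M). Controls had a sham operation in which the vertebra was opened and the cord was not struck, and all of them were collected at 6 months, so the controls of 1 M and 3 M were older than the injured rats. Each library pooled the 0.5 mm segment at the injury centre from 3 rats, and 11 libraries were analysed, 2 of 6 M and 3 of each other group. The authors left out another 6 M pool, replicate 3, as an outlier, because its levels correlated less with the other 6 M pools. The 6 M spread is therefore that of the pools kept. Controls and injured libraries were never in the same batch, and a batch difference and an effect of injury therefore cannot be told apart where control is compared. A control library held 10057646 to 19241259 counts and an injured library 21430564 to 49986531, so members with low counts were measured with less precision in control. Levels between libraries are given as counts relative to library size (CPM) scaled by the trimmed mean of M values (TMM), and levels between genes as FPKM. A member was called higher or lower at an adjusted p under 0.05 (edgeR's quasi-likelihood test with Benjamini-Hochberg adjustment over all 14867 genes) and a differentially expressed gene (DEG) at an adjusted p under 0.01 with a fold change over 2, and ± is the SE of a log2 fold change or the SD of a level.

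Markers of cord cells were present and moved with injury. All 13 neuronal markers were lower than control at every time, and their summed level was 7957 to 11093 CPM in control, 3496 to 3931 at 1 M, 1495 to 1871 at 3 M, and 2381 and 609.7 in 6 M replicates 1 and 2. Of 10 oligodendrocyte markers, 8 were lower at each time, and the sum went from 89806 to 94734 CPM in control to 30424 to 41271 in the injured libraries. Of 7 macrophage markers, 6 were higher at each time, and the sum was 238 to 360.1 CPM in control, 2298 to 3253 at 1 M, 1881 to 2007 at 3 M and 1314 to 1547 at 6 M, with Mmp12 at 0 counts in 2 control libraries. Microglial markers were higher in 9 of 10 at each time, and the fibroblast, pericyte, Schwann cell and ependymal lists also held more higher than lower calls at 3 M and 6 M. Of 10 endothelial markers 9 were tested, of which 4, 5 and 5 were higher in time order and 1, 1 and 0 lower. Their sum was 598 to 738 CPM in control, 676 to 721 at 1 M, 758 to 811 at 3 M and 793 to 898 at 6 M, with Cldn5 at 0 counts in every library. Of 9 astrocyte markers, 4, 3 and 4 were higher and 3, 2 and 0 lower, with a sum of 12163 to 13234 CPM in control and 18676 to 26230 after injury. In bulk tissue, fewer cells of a type and less RNA per cell cannot be told apart.

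Guidance proteins steer growing axons by attracting or repelling the growth cone. Class 3 semaphorins are secreted and bind neuropilins, which signal with plexins, whereas the other semaphorins are held in the membrane and bind plexins directly. Ephrins and Eph receptors act between touching cells, ephrins A mainly with EphA and ephrins B mainly with EphB receptors, Slits repel axons through Robo receptors, and netrins attract through Dcc and Neo1 or repel through Unc5 receptors. Several members, such as the semaphorins, are also known from scar tissue, vessels and immune cells.

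The promoters of 4 members are printed because these genes had the 2 highest (Plxnc1 and Sema3d) and the 2 lowest (Efna3 and Sema6b) mean log2 fold changes among members that were DEGs at all 3 times and had a promoter in RefSeq, which 56 of 71 members had. They are the 250 bases before the gene start in RefSeq's GRCr8, all on the minus strand, at chr4:23460972-23461221 (Sema3d, ENSRNOG00000007202), chr7:31430606-31430855 (Plxnc1, ENSRNOG00000007970), chr2:177035839-177036088 (Efna3, ENSRNOG00000057322) and chr9:1047743-1047992 (Sema6b, ENSRNOG00000045998). Capitals mark matches to 5 motifs searched on both strands.
Sema3d: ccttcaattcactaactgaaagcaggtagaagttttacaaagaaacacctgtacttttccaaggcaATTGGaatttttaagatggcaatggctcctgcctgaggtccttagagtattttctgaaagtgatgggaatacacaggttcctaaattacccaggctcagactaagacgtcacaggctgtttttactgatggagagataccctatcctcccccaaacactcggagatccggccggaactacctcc
Plxnc1: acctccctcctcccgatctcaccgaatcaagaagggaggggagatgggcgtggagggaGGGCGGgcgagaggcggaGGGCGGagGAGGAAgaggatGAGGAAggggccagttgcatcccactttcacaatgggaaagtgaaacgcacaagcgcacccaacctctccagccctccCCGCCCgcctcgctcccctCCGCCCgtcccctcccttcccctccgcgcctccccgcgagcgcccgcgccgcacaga
Efna3: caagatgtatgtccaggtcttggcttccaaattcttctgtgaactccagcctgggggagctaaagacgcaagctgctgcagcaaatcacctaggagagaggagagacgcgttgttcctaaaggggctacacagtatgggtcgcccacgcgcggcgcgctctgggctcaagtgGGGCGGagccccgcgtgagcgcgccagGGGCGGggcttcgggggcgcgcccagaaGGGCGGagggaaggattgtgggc
Sema6b: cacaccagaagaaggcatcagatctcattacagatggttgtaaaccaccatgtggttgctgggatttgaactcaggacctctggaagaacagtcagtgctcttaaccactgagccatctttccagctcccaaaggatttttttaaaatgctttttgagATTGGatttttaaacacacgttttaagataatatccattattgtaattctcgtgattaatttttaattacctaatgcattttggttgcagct
The TATA box, searched as TATAAA, was in 13.1% of all 27457 promoters and in 0% of the 56 member promoters. The CCAAT box was in 34.3% of all and 33.9% of member promoters. The GC box, searched as GGGCGG, was in 32.4% of all and 57.1% of member promoters. A PU.1 core, searched as GAGGAA, was in 23.2% and 19.6%. The AP-1 motif, searched as TGANTCA, was in 6.36% and 1.79%. The median GC content of member promoters was 63.2% against 52.0% in all promoters. Plxnc1 had 4 GC boxes and 2 GAGGAA matches, Efna3 3 GC boxes, and Sema3d and Sema6b a CCAAT match each, 184 and 92 bases before the start. A match describes the letters and does not show that a factor binds there.

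In control cord the members differed widely in level. Sema4d, a membrane semaphorin that binds plexin B1 and is made by oligodendrocytes, was the highest at 158 ± 8.72 FPKM (SD, n = 3). The highest members of the other families were Sema3b at 28.3 ± 4.43 FPKM, Plxnb3 at 20.7 ± 3.43, Unc5b at 19.2 ± 3.11, Efnb3 at 10.5 ± 1.72, Efna1 at 10.2 ± 1.84, Ephb1 at 8.31 ± 0.197, Ntn1 at 3.20 ± 1.63, Epha10 at 2.80 ± 0.453, Robo2 at 2.59 ± 0.546, Nrp2 at 2.50 ± 0.763 and Slit2 at 1.93 ± 0.689. Among the tested members, 7 passed an FPKM of 1 only in injured libraries (Sema3a, Sema3d, Sema3e, Epha2, Epha3, Epha7 and Plxnc1) and none passed only in control. There were fewer control than injured libraries to pass in, and the share of all genes with this pattern was not counted.

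**Figure D1:**
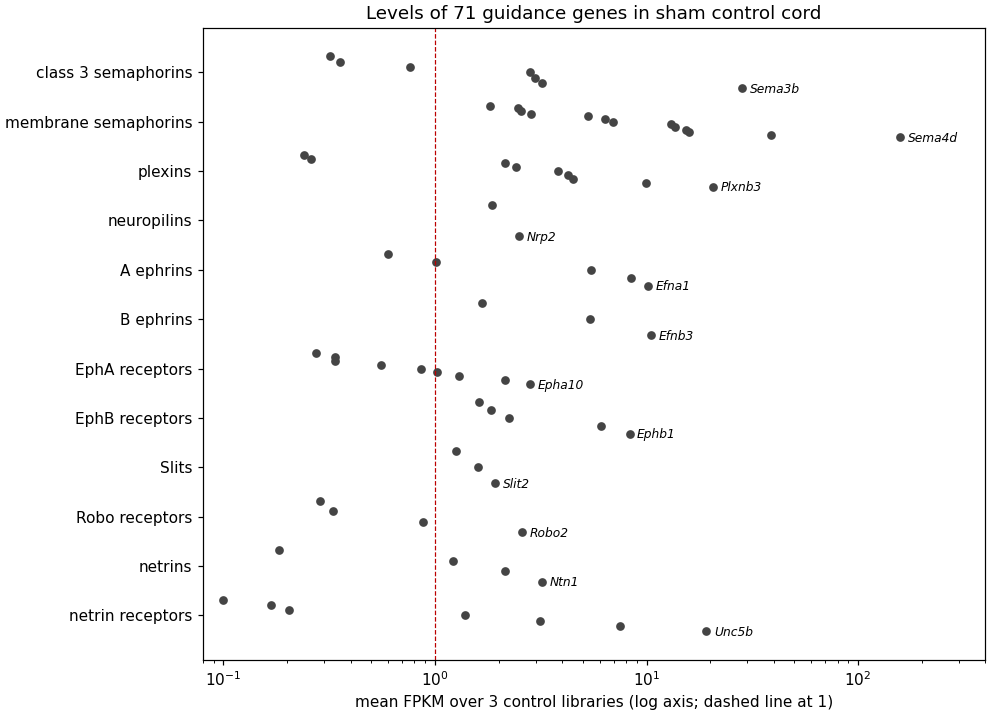
Mean FPKM of the 71 members over 3 control libraries (log axis), by family, with the highest member of each family named and a dashed line at an FPKM of 1. Sema4d at 158 FPKM lies far to the right of the other members.

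Against control, 16 of 61 tested members were higher (26.2%, against 25.5% of all tested genes) and 17 lower (27.9%, against 31.5%) at 1 M. At 3 M, 24 were higher (39.3%, against 29.7%) and 16 lower (26.2%, against 31.4%), and at 6 M 19 were higher (31.1%, against 26.8%) and 16 lower (26.2%, against 27.2%). With total counts in place of TMM, which moved the median gene by 0.21, 0.22 and 0.22 on the log2 scale, the counts were 26 higher and 12 lower at 1 M, 30 and 12 at 3 M, then 23 and 12 at 6 M, and the shares of all genes were 34.7% and 20.3%, 40.2% and 22.4%, then 37.0% and 19.5%. DEGs numbered 8 higher and 4 lower at 1 M (10.5% and 7.02% of all genes), 14 and 7 at 3 M (12.7% and 10.9%), and 12 and 8 at 6 M (10.6% and 9.56%). The median log2 fold change of the members was 0.16, 0.33 and 0.15 in time order, where that of all genes was -0.05, 0 and 0.00. The shares called were thus near those of all genes at 1 M and 6 M, and the difference at 3 M was not tested. The tested members include 7 that passed the FPKM filter only through injured libraries and none only through control, which favours higher calls. The filter was the same for all genes.

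The same members tended to be called at each time, in comparisons that share their 3 control libraries. There were 12 members higher and 12 lower at all 3 times, 48 were called at least once, 13 were never called, and none was called in both directions. The shares of all tested genes with such repeated calls or repeated DEGs were not counted. The counts are therefore not read as particular to the members. At all 3 times 7 members were DEGs with higher levels (Sema3d, Nrp1, Nrp2, Plxnb2, Plxnc1, Plxnd1 and Robo1) and 4 were DEGs with lower levels (Sema4d, Sema4f, Sema6b and Efna3). Each of these 11 kept its direction and its adjusted p under 0.05 at every time in all 22 alternatives tried. They had been picked at a stricter threshold in the same data, so this is not independent support. Sema3d and Plxnc1 passed the FPKM filter only through injured libraries.

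**Figure D2:**
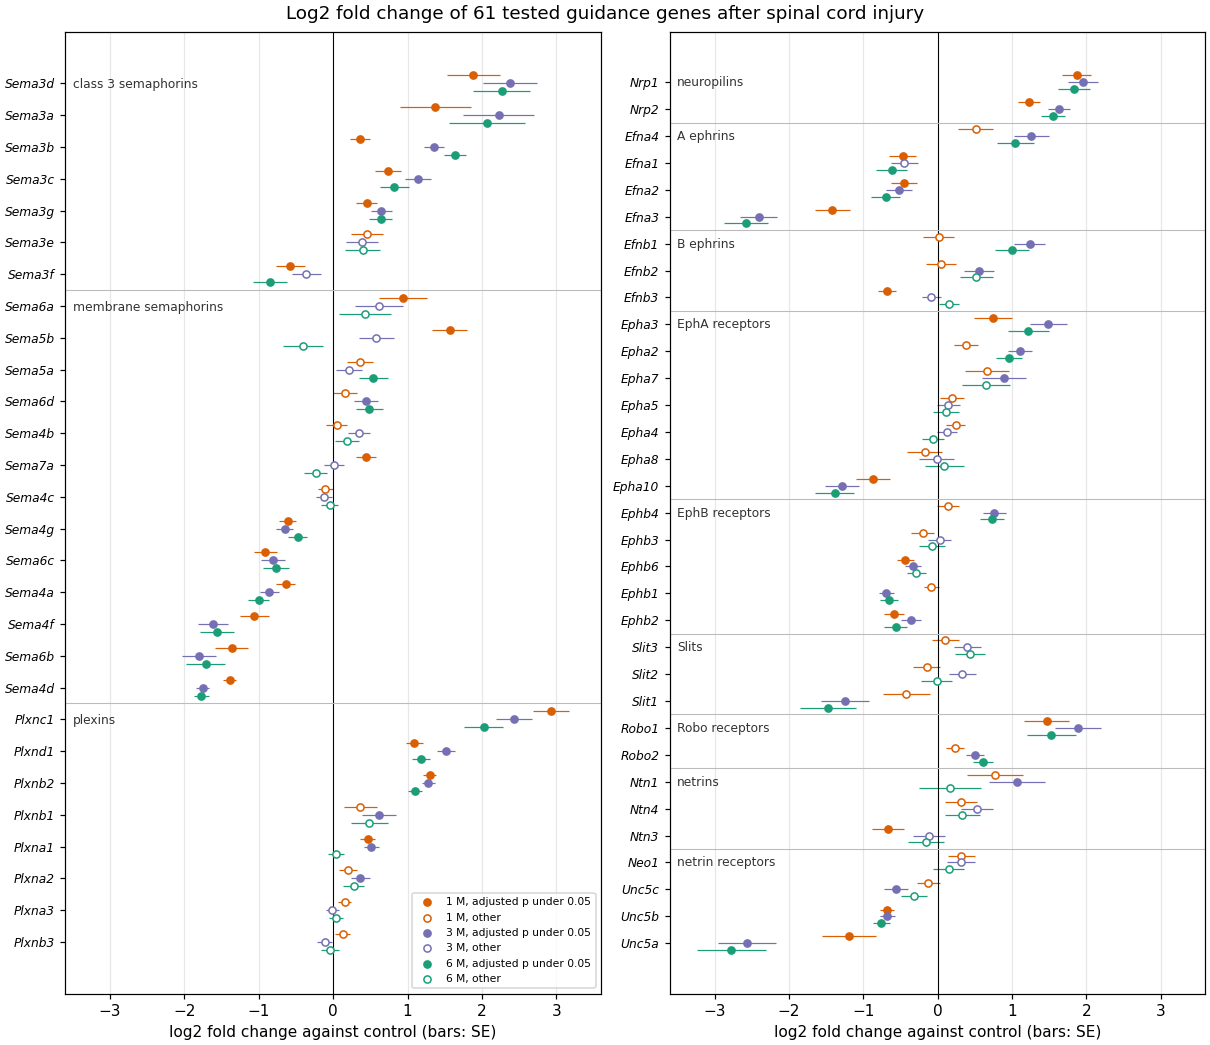
Log2 fold change against control of the 61 tested members after 1, 3 and 6 months, with the SE as bars, by family. Filled points have an adjusted p under 0.05, and no plexin or neuropilin was called lower, also with each other scaling tried, whereas 6 of 13 membrane semaphorins were lower at each time (5 at 6 M with total counts or limma). Of all tested genes, 31.5%, 31.4% and 27.2% were lower in time order.

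Of the class 3 semaphorins, 5 of 7 were higher at each time (71.4%, against 25.5%, 29.7% and 26.8% of all tested genes in time order). The difference was not tested. Sema3a and Sema3d, which are among the 5, and Sema3e passed the FPKM filter only through injured libraries. Sema3f was lower at 1 M and 6 M, a call that at 1 M was lost with total counts, upper quartiles or limma. Sema3a, which makes growth cones collapse through Nrp1 and A plexins, was at 4.20, 0.593 and 2.05 CPM in control, 3.46, 7.42 and 7.40 at 1 M, 11.5, 10.7 and 10.5 at 3 M, then 11.9 and 7.68 at 6 M. All 3 M and 6 M libraries were above all controls, while 1 M replicate 1 lay within the control range. Its log2 fold change was 1.37 ± 0.48 at 1 M (adjusted p = 0.0302), 2.23 ± 0.47 at 3 M (adjusted p = 0.00220) and 2.07 ± 0.51 at 6 M (adjusted p = 0.00609). The 1 M call was lost in 6 of 22 alternatives, among them leaving out control replicate 2 or 3 (adjusted p = 0.0676 and 0.0978) or 1 M replicate 2 or 3 (adjusted p = 0.0887 and 0.0819).

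Sema3d, another secreted semaphorin, was at 4.95, 1.66 and 4.39 CPM in control, 8.86, 15.5 and 17.9 at 1 M, 23.3, 19.9 and 16.2 at 3 M, then 14.9 and 21.4 at 6 M. Every injured library was above every control. It rose by 1.89 ± 0.36 on the log2 scale at 1 M (adjusted p = 0.00157), by 2.38 ± 0.36 at 3 M (adjusted p = 0.000277) and by 2.26 ± 0.39 at 6 M (adjusted p = 0.000800). Sema3b, shown like Sema3c after its values were seen, was the most abundant class 3 semaphorin, at 134, 110.5 and 114 CPM in control, 145, 163 and 152 at 1 M, 300.4, 293 and 324 at 3 M, then 306 and 436 at 6 M. Its 1 M libraries lay just above the controls and its 3 M and 6 M libraries far above both. The log2 fold change was 0.36 ± 0.13 at 1 M (adjusted p = 0.0364, lost in 8 of 22 alternatives), 1.36 ± 0.13 at 3 M (adjusted p = 2.16e-05) and 1.64 ± 0.14 at 6 M (adjusted p = 2.59e-05). Sema3c, a ligand of neuropilins and plexin D1, was at 33.6, 24.7 and 33.7 CPM in control, 42.2, 55.4 and 56.9 at 1 M, 72.8, 55.8 and 74.6 at 3 M, then 48.1 and 61.0 at 6 M, without overlap between control and injured libraries. It was highest against control at 3 M, with a log2 fold change of 1.14 ± 0.18 (adjusted p = 0.000305). The summed FPKM of the family went from 38.8 in control to 60.6, 109 and 129 at the 3 times, and Sema3b made up most of it.

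Summed fibroblast markers (6 tested) were 866 to 1618 CPM in control, 2005 to 2707 at 1 M, 2476 to 3637 at 3 M and 1881 to 2508 at 6 M, with 3, 6 and 3 of 6 higher. Control replicate 2 had the lowest fibroblast sum and also the lowest Sema3a, Sema3c and Sema3d levels. 1 M replicate 3 had the lowest sum at 1 M but the highest Sema3c and Sema3d there. 3 M replicate 3 had the highest sum, with the highest Sema3c but the lowest Sema3a and Sema3d of 3 M. 6 M replicate 1 had the lower sum at 6 M, with lower Sema3c and Sema3d but higher Sema3a. The part of fibroblasts in the class 3 semaphorin levels was not tested.

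**Figure D3:**
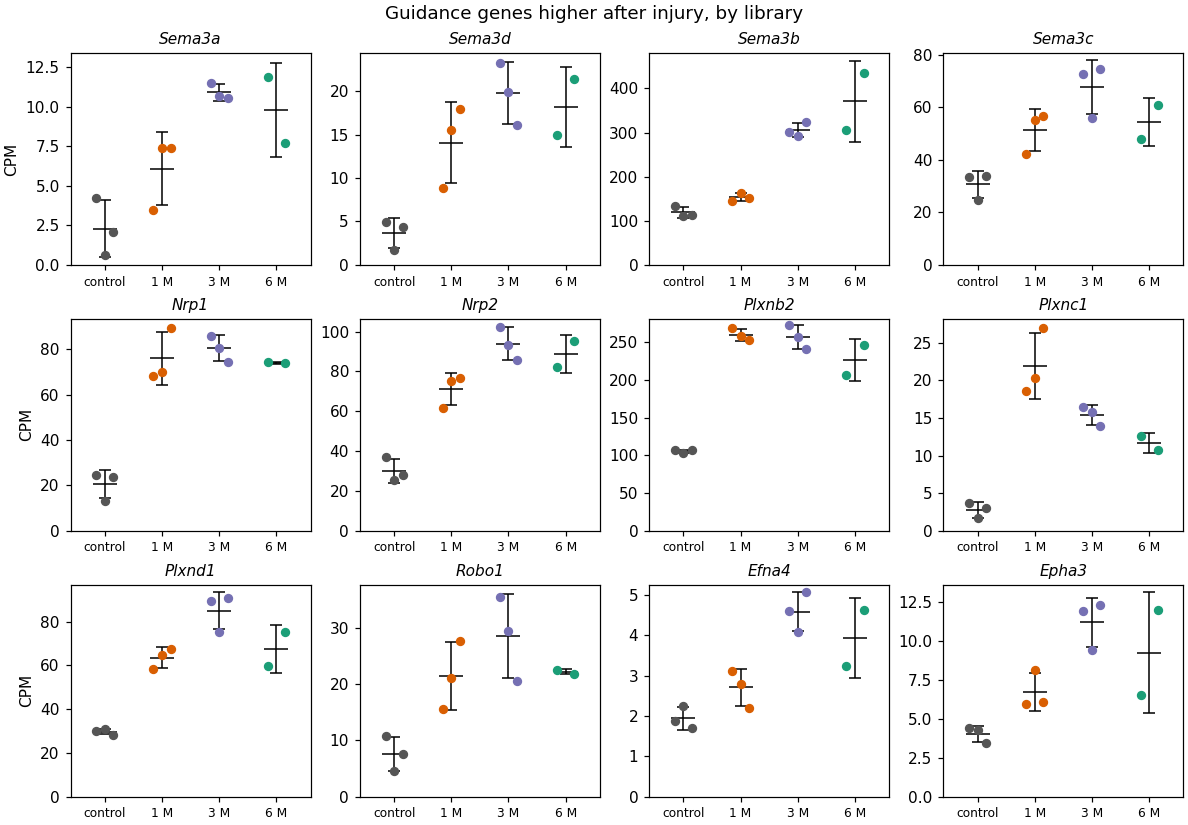
CPM of 12 guidance genes that were higher after injury, by library. Points are libraries, and bars are the mean and SD of a group. In Plxnb2 the controls sit at 103 to 107 CPM and the injured libraries at 206 to 273.

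Membrane semaphorins held the largest count of lower calls of any family and are also the largest family, with 6 of 13 lower at each time (Sema4a, Sema4d, Sema4f, Sema4g, Sema6b and Sema6c). This was 46.2%, against 31.5%, 31.4% and 27.2% of all tested genes in time order, and the difference was not tested. The number of higher calls was 3, 1 and 2, and the sign of the family's median changed with scaling at 1 M and 3 M, so no direction is given for the family. Sema4d was at 655, 685 and 695 CPM in control, 257, 254 and 264 at 1 M, 196, 185 and 221 at 3 M, then 199 and 198 at 6 M. All injured libraries were far below all controls, the 1 M libraries lay above the others after injury, and those of 3 M and 6 M overlapped. Its log2 fold change was -1.39 ± 0.086 at 1 M (adjusted p = 1.51e-06), -1.76 ± 0.087 at 3 M (adjusted p = 5.36e-07) and -1.77 ± 0.10 at 6 M (adjusted p = 2.69e-06). The oligodendrocyte marker sum moved the same way, and its part in the Sema4d level was not tested.

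Sema6b, a ligand of A plexins, was at 88.8, 111 and 68.1 CPM in control, 42.0, 32.3 and 29.2 at 1 M, 25.5, 23.7 and 27.5 at 3 M, then 34.2 and 20.4 at 6 M. All injured libraries were below all controls. The log2 fold changes were -1.37 ± 0.22 (adjusted p = 0.000641), -1.80 ± 0.23 (adjusted p = 8.65e-05) and -1.71 ± 0.26 (adjusted p = 0.000437). Sema4f went from 51.5, 46.9 and 38.4 CPM in control to 26.2, 20.3 and 18.8 at 1 M, 14.7, 14.8 and 14.9 at 3 M, then 19.4 and 11.5 at 6 M, again with no overlap. Its log2 fold change was -1.06 ± 0.19, -1.62 ± 0.20 and -1.56 ± 0.23 (adjusted p = 0.00124, 7.39e-05 and 0.000347). Sema4a, named after its values were seen, was at 70.6 to 87.6 CPM in control, 45.3 to 57.4 at 1 M, 41.5 to 46.1 at 3 M, then 45.0 and 35.1 at 6 M, and its log2 fold change at 6 M was -1.001 ± 0.15 (adjusted p = 0.000323). Sema4g and Sema6c had log2 fold changes between -0.91 and -0.48 at the 3 times.

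**Figure D4:**
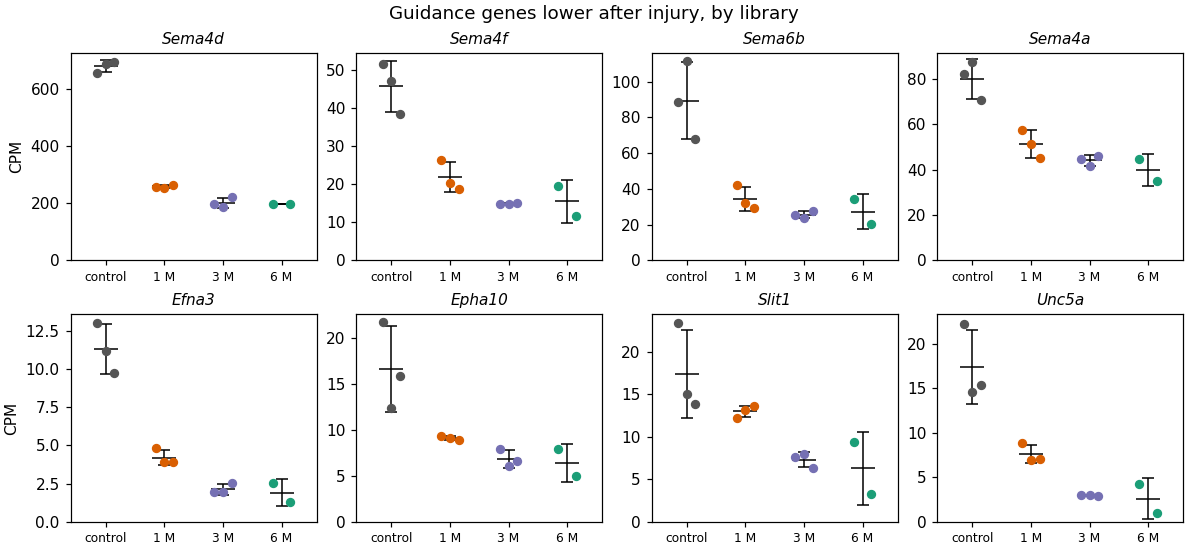
CPM of 8 guidance genes that were lower after injury, by library. Points are libraries, and bars are the mean and SD of a group. In Unc5a, Slit1 and Efna3 the 6 M libraries differ from each other, replicate 2 being the lower.

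Ephrins moved in both directions. Efna3, an ephrin A, was at 13.0, 11.1 and 9.74 CPM in control, 4.79, 3.91 and 3.89 at 1 M, 1.93, 1.92 and 2.52 at 3 M, then 2.52 and 1.29 at 6 M. Every injured library was below every control, and the 3 M and 6 M libraries were below those of 1 M. The log2 fold changes were -1.42 ± 0.24 (adjusted p = 0.000716), -2.41 ± 0.25 (adjusted p = 3.01e-05) and -2.58 ± 0.30 (adjusted p = 9.72e-05). Efna4, also an ephrin A, was at 1.87, 2.25 and 1.71 CPM in control, 3.11, 2.81 and 2.21 at 1 M, 4.60, 4.09 and 5.08 at 3 M, then 3.23 and 4.64 at 6 M. The 3 M and 6 M libraries were above all controls, and 1 M overlapped control. Its log2 fold change was 0.51 ± 0.23 at 1 M (adjusted p = 0.0847), 1.26 ± 0.23 at 3 M (adjusted p = 0.000886) and 1.04 ± 0.25 at 6 M (adjusted p = 0.00550). Without 6 M replicate 2 the 6 M difference was 0.74 (adjusted p = 0.0671). Efna1 and Efna2 were lower in most comparisons, with log2 fold changes between -0.70 and -0.45, and these calls were lost in 2 to 18 of 22 alternatives, apart from Efna1 at 3 M, which was not called.

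Efnb1, a ligand of EphB receptors, was at 26.5, 23.8 and 30.5 CPM in control and at a like level of 26.8, 27.4 and 27.9 at 1 M, then at 70.2, 58.0 and 63.2 at 3 M and 36.5 and 71.9 at 6 M. Control and 1 M overlapped, and every 3 M and 6 M library was above both. The log2 fold change was 0.02 ± 0.21 at 1 M (adjusted p = 0.961), 1.24 ± 0.21 at 3 M (adjusted p = 0.000535) and 1.00 ± 0.23 at 6 M (adjusted p = 0.00397, and 0.0619 without 6 M replicate 2). Efnb3, which forms a midline barrier in the developing cord and was shown after its values were seen, had another course. It was at 55.4, 49.4 and 57.3 CPM in control, 36.1, 33.8 and 31.2 at 1 M, 54.2, 50.1 and 48.8 at 3 M, then 50.4 and 69.5 at 6 M. Only the 1 M libraries lay below control, with a log2 fold change of -0.68 ± 0.12 (adjusted p = 0.00113), and those of 3 M and 6 M overlapped the controls (adjusted p = 0.572 and 0.379).

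Of the Slits, Slit1 was at 23.3, 15.1 and 13.8 CPM in control, 12.2, 13.1 and 13.6 at 1 M, 7.60, 8.00 and 6.29 at 3 M, then 9.34 and 3.28 at 6 M. All injured libraries were below the lowest control, at 1 M by a small margin. The difference was -0.42 ± 0.32 at 1 M (adjusted p = 0.277), -1.25 ± 0.32 at 3 M (adjusted p = 0.00685) and -1.48 ± 0.38 at 6 M (adjusted p = 0.00748). Slit2 and Slit3 were not called at any time under TMM, with log2 fold changes of -0.15 to 0.44, but both were called higher at 3 M with total counts or limma. Of the netrins, Ntn1, the classical midline attractant, had log2 fold changes of 0.77 ± 0.38 at 1 M (adjusted p = 0.104), 1.06 ± 0.38 at 3 M (adjusted p = 0.0304) and 0.16 ± 0.42 at 6 M (adjusted p = 0.762), and Ntn3 was lower at 1 M, at -0.67 ± 0.22 (adjusted p = 0.0237), a call lost in 10 of 22 alternatives.

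Both neuropilins were higher at all times, where 25.5%, 29.7% and 26.8% of all tested genes were higher in time order. Nrp1, the receptor of Sema3a and also of vascular endothelial growth factor, was at 24.6, 13.3 and 23.8 CPM in control, 68.2, 70.1 and 89.6 at 1 M, 86.0, 80.7 and 74.5 at 3 M, then 74.2 and 73.8 at 6 M. The lowest injured library was above the highest control by far. Relative to control it rose by 1.87 ± 0.20 (adjusted p = 4.84e-05), 1.95 ± 0.20 (adjusted p = 2.68e-05) and 1.83 ± 0.21 (adjusted p = 0.000105). Nrp2, the receptor of Sema3f, was at 37.1, 25.6 and 28.1 CPM in control, 61.7, 75.2 and 76.4 at 1 M, 102, 93.0 and 86.0 at 3 M, then 82.2 and 95.3 at 6 M. It also showed no overlap, and the 3 M and 6 M libraries were above those of 1 M. Its log2 fold changes were 1.23 ± 0.15, 1.63 ± 0.15 and 1.55 ± 0.16 (adjusted p = 0.000101, 1.47e-05 and 6.05e-05).

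All plexin calls were higher, in 4, 6 and 3 of 8 tested plexins at the 3 times. As shares these were 50%, 75% and 37.5%, against 25.5%, 29.7% and 26.8% of all tested genes, and the difference was not tested. Plxnc1, the receptor of Sema7a, was at 3.73, 1.66 and 3.02 CPM in control, 18.5, 20.3 and 26.9 at 1 M, 16.5, 15.9 and 14.0 at 3 M, then 12.6 and 10.8 at 6 M. The groups did not overlap, and the order ran from control over 6 M and 3 M to 1 M. Its log2 fold changes were 2.93 ± 0.24 (adjusted p = 1.01e-05), 2.43 ± 0.24 (adjusted p = 2.48e-05) and 2.02 ± 0.26 (adjusted p = 0.000175), and the value at 1 M was the highest of any member. Plxnc1 passed the FPKM filter only through injured libraries, which favours a higher call. The macrophage marker sum given above had the same order of groups. The microglial sum nearly did, at 1897 to 2183 CPM at 1 M, 1300 to 1375 at 3 M and 1137 to 1303 at 6 M. Within 1 M and within 6 M the macrophage sum and Plxnc1 ran in opposite order by library. In control the lowest library, and at 3 M the highest, was the same for both. The part of these cells in the Plxnc1 level was not tested. Plxnb2, a receptor of class 4 semaphorins, was at 107, 103 and 107 CPM in control, 269, 258 and 254 at 1 M, 273, 257 and 241 at 3 M, then 206 and 247 at 6 M. Injured libraries were all above control and overlapped each other. Its log2 fold changes were 1.30 ± 0.089, 1.28 ± 0.089 and 1.10 ± 0.10 (adjusted p = 2.80e-06, 3.09e-06 and 2.50e-05). Plxnd1, the receptor of Sema3e with known roles in vessels, was at 30.0, 31.1 and 28.4 CPM in control, 58.2, 65.0 and 67.4 at 1 M, 89.3, 75.2 and 90.7 at 3 M, then 59.7 and 75.3 at 6 M. It was highest at 3 M, and control was below all injured libraries. The endothelial marker sum was above its control range at 3 M and 6 M but within it at 1 M, and its part in the Plxnd1 and Nrp1 levels was not tested. The values of Plxnd1 relative to control were, on the log2 scale, 1.09 ± 0.12, 1.52 ± 0.12 and 1.18 ± 0.13 (adjusted p = 4.54e-05, 5.97e-06 and 6.88e-05). Plxna3 and Plxnb3, the latter the highest plexin in control, were not called at any time under TMM, with log2 fold changes of -0.11 to 0.16.

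Among the EphA receptors, only Epha2, Epha3 and Epha7 were called higher under TMM. All of them passed the FPKM filter only through injured libraries, which favours higher calls. Epha3 was at 4.39, 4.27 and 3.42 CPM in control, 5.97, 8.12 and 6.05 at 1 M, 11.9, 9.40 and 12.3 at 3 M, then 6.51 and 12.0 at 6 M. No injured library overlapped control. The log2 fold change was 0.75 ± 0.25 at 1 M (adjusted p = 0.0276), 1.49 ± 0.25 at 3 M (adjusted p = 0.000568) and 1.22 ± 0.28 at 6 M (adjusted p = 0.00390). The 1 M call was lost without 1 M replicate 2 (adjusted p = 0.0983) or control replicate 2 or 3 (adjusted p = 0.05002 and 0.106), and with 1 batch per group (adjusted p = 0.124). Without 6 M replicate 2 the 6 M log2 fold change of Epha3 fell to 0.69. Epha2 was at 4.85, 5.57 and 5.76 CPM in control, 6.96, 7.16 and 6.95 at 1 M, 10.9, 10.8 and 13.2 at 3 M, then 8.86 and 12.1 at 6 M, without overlap of control and injury. Its log2 fold change was 0.38 ± 0.16 at 1 M (adjusted p = 0.0699), 1.10 ± 0.16 at 3 M (adjusted p = 0.000221) and 0.96 ± 0.18 at 6 M (adjusted p = 0.00127). Epha10, predicted to lack kinase activity, was at 21.7, 12.3 and 15.8 CPM in control, 9.26, 9.12 and 8.88 at 1 M, 7.90, 6.01 and 6.54 at 3 M, then 7.88 and 4.94 at 6 M. Here the injured libraries were all below control. On the log2 scale the differences were -0.87 ± 0.22, -1.28 ± 0.23 and -1.38 ± 0.26 (adjusted p = 0.00761, 0.000735 and 0.00151). Epha4, Epha5 and Epha8 were not called at any time under TMM, with log2 fold changes of -0.17 to 0.24.

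EphB receptors gave no DEG, and Ephb1 and Ephb4 are shown for their change between times, after their values were seen. Ephb4, the receptor of ephrin B2 on veins, was at 12.4, 15.5 and 16.4 CPM in control, 15.1, 17.3 and 16.6 at 1 M, 26.2, 21.9 and 27.4 at 3 M, then 21.4 and 27.6 at 6 M. Control and 1 M overlapped, and 3 M and 6 M were above both, with log2 fold changes of 0.76 ± 0.15 (adjusted p = 0.00130) and 0.73 ± 0.16 (adjusted p = 0.00376, and 0.0565 without 6 M replicate 2). Ephb1 was at 58.3, 69.3 and 65.0 CPM in control, 61.3, 55.3 and 65.1 at 1 M, 40.2, 40.4 and 38.6 at 3 M, then 44.5 and 37.2 at 6 M. It went the other way, with log2 fold changes of -0.69 ± 0.10 at 3 M (adjusted p = 0.000223) and -0.65 ± 0.12 at 6 M (adjusted p = 0.000970).

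Robo1, a Slit receptor, was at 10.7, 4.62 and 7.52 CPM in control, 15.5, 21.0 and 27.6 at 1 M, 35.5, 29.5 and 20.6 at 3 M, then 22.5 and 21.9 at 6 M. Every injured library was above every control. The log2 fold changes were 1.47 ± 0.31, 1.89 ± 0.31 and 1.53 ± 0.33 (adjusted p = 0.00247, 0.000419 and 0.00312). Robo2 was higher at 3 M and 6 M, by 0.50 ± 0.12 and 0.62 ± 0.13 (adjusted p = 0.00455 and 0.00322). Of the netrin receptors, Unc5a, which mediates repulsion from netrin, was at 22.2, 14.6 and 15.4 CPM in control, 8.82, 6.98 and 7.03 at 1 M, 2.97, 2.99 and 2.89 at 3 M, then 4.21 and 0.994 at 6 M. All injured libraries were below control and those of 3 M and 6 M below those of 1 M. The log2 fold changes were -1.19 ± 0.36 (adjusted p = 0.0175), -2.56 ± 0.39 (adjusted p = 0.000283) and -2.78 ± 0.46 (adjusted p = 0.000720), and the 1 M call was lost without control replicate 1 (adjusted p = 0.0592) or 1 M replicate 2 or 3 (adjusted p = 0.0589 and 0.0515). It was also lost with 1 batch per group (adjusted p = 0.0791) and with limma on log2(FPKM + 0.1) (adjusted p = 0.0720). Unc5b, the most abundant of them, went from 166 to 210.0 CPM in control to 105 to 122 in the injured libraries, with log2 fold changes of -0.68, -0.68 and -0.76 (adjusted p = 0.000262, 0.000176 and 0.000315). Unc5c was lower at 3 M only, at -0.56 ± 0.16 (adjusted p = 0.00969), and this turned to 0.11 and 0.19 in the 2 limma fits to FPKM.

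Unc5a, Slit1, Efna3, Epha10, Sema4f and Sema6b were all lower in 6 M replicate 2 than in 6 M replicate 1, as was the neuronal marker sum. This was not particular to members that were lower after injury. Sema3a and Plxnc1, which were higher after injury, and Sema5b, Sema6a, Epha5 and Epha8 were also lower in 6 M replicate 2. The part of neurons in any of these levels was not tested.

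Between times after injury, 3 M had 7 of 61 members higher (11.5%, against 5.02% of all genes) and 4 lower (6.56%, against 3.30%) than 1 M. The 7 were Sema3b, Efna4, Efnb1, Efnb3, Epha2, Ephb4 and Plxnd1, and the 4 were Sema4d, Sema5b, Efna3 and Ephb1. At 6 M against 1 M, 4 were higher (6.12% of all genes) and 8 lower (3.95%), the 4 being Sema3b, Efnb1, Efnb3 and Ephb4 and the 8 Sema4d, Sema5b, Sema7a, Efna3, Ephb1, Plxna1, Plxnc1 and Unc5a. Both comparisons share the 1 M libraries. DEGs numbered 1 higher (Efnb1, 0.518% of all genes) and 0 lower (0.114%) at 3 M, and 1 higher (Sema3b, 1.30%) and 1 lower (Sema5b, 0.484%) at 6 M. Of the 3 M and 1 M libraries, all but 1 M replicate 3 came from the same batch, and within it Sema3b (0.99 ± 0.16, adjusted p = 0.0344) and Efnb1 (1.24 ± 0.25, adjusted p = 0.0482) kept their calls, while the other 9 kept their direction with adjusted p from 0.05002 (Ephb1) to 0.156 (Efna4). At 6 M against 1 M, batch and time cannot be told apart.

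Sema5b, a membrane semaphorin with thrombospondin repeats, had the largest change between times and was shown, like Sema7a and Plxna1, after its values were seen. It was at 13.3, 6.40 and 10.4 CPM in control, 27.2, 27.0 and 36.1 at 1 M, 15.7, 16.1 and 13.8 at 3 M, then 8.95 and 6.46 at 6 M. The 1 M libraries were above all others, those of 3 M came next and 6 M overlapped control. Its log2 fold change against control was 1.57 ± 0.23 at 1 M (adjusted p = 0.000385), 0.58 ± 0.23 at 3 M (adjusted p = 0.0520) and -0.40 ± 0.27 at 6 M (adjusted p = 0.224), and the difference of 6 M from 1 M was -1.97 ± 0.27 (adjusted p = 0.00266). Sema7a, which is anchored by lipid and binds Plxnc1 and integrins, was at 219.7, 154 and 158 CPM in control, 268, 229.8 and 223 at 1 M, 174, 191 and 173 at 3 M, then 158 and 144 at 6 M. Only the 1 M libraries were above all controls, and 6 M was lower than 1 M, at -0.67 ± 0.15 (adjusted p = 0.0228). Plxna1 was at 50.1 to 63.9 CPM in control, 75.1 to 80.2 at 1 M, 75.2 to 85.5 at 3 M, then 60.8 and 55.3 at 6 M, so the 6 M libraries lay back in the control range. Sema3b and Efnb1 stood at 1.00 ± 0.13 and 1.22 ± 0.20 higher at 3 M than at 1 M on the log2 scale (adjusted p = 0.00359 and 0.00893). The summed ependymal markers (4 tested) were 15.8 to 18.6 CPM in control, 12.2 to 17.1 at 1 M and 32.7 to 59.5 at 3 M and 6 M. Astrocyte sums were 18676 to 21057 CPM at 1 M and 24475 to 26230 at 3 M and 6 M. The endothelial sum given above also rose after 1 M. The part of these cells in the Sema3b and Efnb1 levels was not tested.

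**Figure D5:**
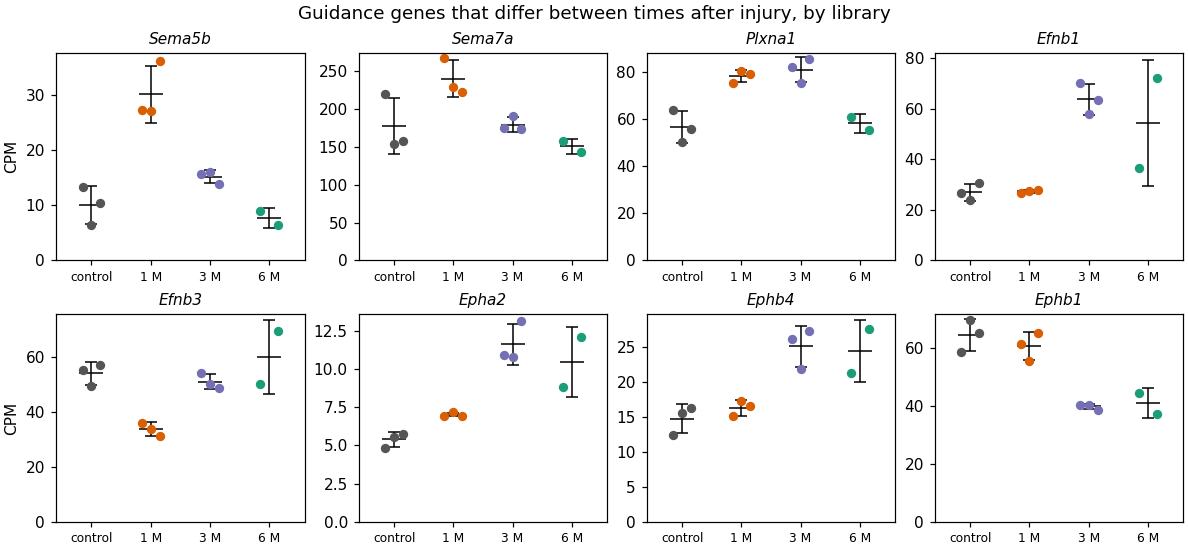
CPM of 8 guidance genes that differed between times after injury, by library. Points are libraries, and bars are the mean and SD of a group. Sema5b, Sema7a and Plxna1 are lower at 6 M than at 1 M, whereas Efnb1 and Ephb4 at 1 M stay at control level and are higher at 3 M.

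Between 6 M and 3 M no member was called in either direction by edgeR (0.0202% of all genes higher and 0.0135% lower). At an unadjusted p under 0.05, 0 were higher and 4 lower (Plxna1, Plxnd1, Sema3f and Sema5b), limma gave 0 calls, and DESeq2 called Plxna1 (-0.49 ± 0.12, adjusted p = 0.00485) and Sema5b (-0.996 ± 0.27, adjusted p = 0.0300) lower.

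The 10 untested members were Efna5, Epha1, Epha6, Dcc, Unc5cl, Unc5d, Ntn5, Plxna4a, Robo3 and Robo4. Without the FPKM filter, Robo3, a divergent Robo needed for midline crossing, was lower at all 3 times. It was at 3.73, 6.76 and 6.44 CPM in control, 0.950, 1.62 and 2.66 at 1 M, 2.04, 2.29 and 2.64 at 3 M, then 1.02 and 2.45 at 6 M. No injured library reached the lowest control, and the log2 fold changes were -1.61, -1.16 and -1.57 (adjusted p = 0.00499, 0.0237 and 0.0126). Dcc, the attractive netrin receptor, was at 1.48 to 1.87 CPM in control and 2.73 to 4.27 at 3 M, with a log2 fold change of 1.19 (adjusted p = 0.0110). Epha6 and Unc5d were lower at 6 M, at log2 fold changes of -1.94 and -1.61 (adjusted p = 0.0257 and 0.0314). All 4 have few counts, and a control library with 3 counts of a gene stands at 0.171 to 0.356 CPM.

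Genes that act with these members were taken from lists of signalling effectors and of other cues. Of 51 tested effectors, which carry guidance signals to actin and microtubules, 19 were higher and 13 lower at 1 M, 15 and 14 at 3 M, then 11 and 15 at 6 M, with a median log2 fold change of 0.16, 0.16 and 0.17. As shares, 37.3%, 29.4% and 21.6% of the effectors were higher in time order, against 25.5%, 29.7% and 26.8% of all genes, and 25.5%, 27.5% and 29.4% were lower, against 31.5%, 31.4% and 27.2%. Limk1, the kinase of cofilin, had log2 fold changes of -0.82, -1.56 and -1.73. In the other direction Srgap1, a Robo-binding GTPase activator, had 1.97, 1.82 and 1.64 and Dpysl3, a collapsin response mediator, had 1.29, 1.35 and 0.97. Of 27 other cues and receptors tested, 11 were higher and 4 lower at 1 M, 14 and 7 at 3 M, then 12 and 7 at 6 M, with medians of 0.27, 0.41 and 0.38. The higher ones were 40.7%, 51.9% and 44.4% of the list and the lower ones 14.8%, 25.9% and 25.9%, beside the same shares of all genes. L1cam, an axonal adhesion molecule, had log2 fold changes of -0.64, -1.31 and -1.23 and the heparan sulfate proteoglycan Gpc1 of -0.83, -0.73 and -0.83. Cd72, a receptor of Sema4d on immune cells, had 3.06, 2.78 and 1.69 and Met, a receptor kinase that associates with B plexins, had 2.51, 2.83 and 2.68.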

How the data were processed

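Bulk RNA of rat cord, read in 11 libraries of 4 groups, was analysed. Each was a pool of 3 rats, so p-values measure the spread between pools. Per the labels and methods, the authors made poly-A libraries and aligned reads with TopHat2 2.1.0 to Rnor6. The deposited counts are raw reads per gene from HTSeq, and the version of HTSeq and whether strand was used are not stated in the material read here, so overlapping or near-identical genes may share or lose reads. The authors made FPKM with Cufflinks 2.2.1, and the deposited FPKM have values under 0.1 set to 0.1.

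edgeR 4.0.16 (TMM, quasi-likelihood test with robust estimation, R 4.3.3) was fitted once to all 11 libraries with condition as the only term, on genes that passed an FPKM of 1 in any library, with Benjamini-Hochberg adjustment. The SE was taken from the log2 fold change and its F statistic. Library totals ran from 10057646 to 49986531 counts, and the total of 1 M replicate 1 exceeds its listed read pairs, for a reason not given. The test was tried on simulated data. No duplicated library was found.

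Members and lists were chosen with earlier results of these data known. Since 28 members were a DEG or differed between times, values in every library are given by rule for up to 5 DEGs per family (19 members), with the rest as ranges or, where stated, chosen after values were seen. The most extreme genes of each list that were called at all 3 times are named, except 1 effector that is not reported here, so the lower end of that list is incomplete. Dock1 and Ngef could not be matched to a single row. Sequences are RefSeq's of GRCr8, another build than the files', and were used by symbol only. The alternatives tried were total counts, upper quartiles or DESeq2's size factors as scaling, DESeq2 1.42.0, limma 3.58.1 on log2(FPKM + 1) and log2(FPKM + 0.1), other filters, fewer libraries, a replicate block, 1 batch per group and other thresholds.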

Additional observations from a re-analysis of the deposited data

Results flagged for a closer look

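A test of the difference between times after injury was past an adjusted p of 0.05 (edgeR) for 23 comparisons of 15 members, and these are listed here as log2 differences. At 3 M against 1 M the values were 1.00 for Sema3b, 1.22 for Efnb1, 0.75 for Efna4, 0.60 for Efnb3, 0.73 for Epha2, 0.62 for Ephb4, 0.42 for Plxnd1, -0.36 for Sema4d, -0.99 for Sema5b, -0.99 for Efna3 and -0.61 for Ephb1. At 6 M against 1 M they were 1.28 for Sema3b, 0.99 for Efnb1, 0.83 for Efnb3, 0.59 for Ephb4, -0.38 for Sema4d, -1.97 for Sema5b, -0.67 for Sema7a, -1.16 for Efna3, -0.57 for Ephb1, -0.43 for Plxna1, -0.90 for Plxnc1 and -1.59 for Unc5a. Sema3b in both comparisons, Efnb1 at 3 M and Sema5b at 6 M were past the threshold in all 22 alternatives, and the other 19 in 7 to 21 of 22. Groups of 2 or 3 libraries are too small for a test of single outlying libraries, which was therefore not run.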

How the results depend on the processing

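Of 8052 checks of a tested member in a comparison under an alternative, 7200 kept direction and side of the threshold, 361 lost a call, 199 gained one, 288 turned sign without a call in either fit and 4 turned sign with a call in one. The 4 were Unc5c at 3 M against control (-0.56, but 0.11 and 0.19 with limma at pseudocounts of 1 and 0.1) and Sema4c at 6 M against control (-0.05, but 0.31 and 0.33). The cause was not tested. Total counts, upper quartiles and limma raised the median gene by 0.11 to 0.46 on the log2 scale against control.

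The 16 members higher at 1 M became 26 with total counts, 28 with limma at either pseudocount, and 10 with 1 batch per group. The 19 higher at 6 M became 30 and 29 with limma. At 3 M against 1 M, 7 higher became 3 with limma (pseudocount 0.1) and 2 with 1 batch per group, and 4 lower became 7 with DESeq2, 2 with limma (pseudocount 0.1), 8 with only the groups compared and 0 with 1 batch per group. At 6 M against 1 M, 4 higher became 2 with only the groups compared, and 8 lower became 5 with total counts, 4 and 3 with limma, 2 with only the groups compared and 2 with 1 batch per group. At 6 M against 3 M, 0 lower became 2 with DESeq2. At an adjusted p under 0.01 with a fold change over 2, the counts higher and lower were 8 and 4 (1 M), 14 and 7 (3 M), 12 and 8 (6 M), 1 and 0 (3 M against 1 M), and 1 and 1 (6 M against 1 M).

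Leaving out each library in turn gave 10 to 21 higher and 12 to 17 lower at 1 M, 18 to 30 and 13 to 17 at 3 M, 12 to 22 and 12 to 17 at 6 M, 2 to 8 and 1 to 7 at 3 M against 1 M, 1 to 7 and 1 to 8 at 6 M against 1 M, and 0 to 0 in both directions at 6 M against 3 M. Against control, the counts that moved by over 1.5 times were 10 higher at 1 M without control replicate 2 or without control replicate 3, and 12 higher at 6 M without 6 M replicate 2. At 3 M against 1 M this held without any 1 M or 3 M library (2 or 3 higher, 1 or 2 lower) and without either 6 M library (7 lower). At 6 M against 1 M it held without 1 M replicate 1 or 2 (2 higher), 6 M replicate 1 (7 higher) or 6 M replicate 2 (1 higher, 1 lower), and, for lower members, without any 1 M or 3 M library (2 to 5).

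Replicate numbers were not taken as pairs, since they mark different pools of rats. The deviations of same-numbered libraries from their group means correlated over 0.1 in 6 of 15 pairs, from -0.56 to 0.42. Different-numbered pairs ran from -0.54 to 0.58. Deviations within groups of 2 or 3 libraries depend on each other, so these correlations cannot decide on pairing. With the replicate block, lower members at 3 M against 1 M became 2, higher and lower members at 6 M against 1 M became 2 and 5, and the other counts stayed within 1.5 times. Groups of 2 or 3 libraries, low control depth and batches limit these results.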
